A study of Homo sapiens with 8 samples.

Results

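The genes described here are 9 transcription factor genes of the intestinal epithelium: KLF4, KLF5, CDX1, CDX2, HNF4A, ELF3, SOX9, ASCL2 and GATA6. They were taken by gene symbol from a table of 17166 genes. Rows were found for 8 of the 9, CDX1 was not analysed here, and 6 averaged at least 1 FPKM and could be tested: KLF4, KLF5, CDX2, ELF3, SOX9 and GATA6. FPKM is the number of sequenced fragments per kilobase of transcript, scaled to a common total of mapped fragments. RNA was from HCT116, an established human colorectal cancer cell line, carrying 1 of 2 inducible short hairpin RNAs against the homeobox gene HOXB8. The groups were sh1 cells with 1 ug/ml doxycycline (dox), sh1 cells without it (no-dox), sh2 cells with dox and sh2 cells without it, all taken at 72 hours and with 2 libraries each. All 4 groups carried a HOXB8 hairpin, and no group had dox without one, so lower HOXB8 and exposure to the drug cannot be told apart. The labels do not say whether a line is 1 clone. The second hairpin is called sh3 in the deposited table and sh2 in the labels, and sh3 was taken as sh2 by elimination.

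These factors set and maintain intestinal identity. CDX1, CDX2, HNF4A and GATA6 switch on genes of absorptive and regional gut identity. KLF5 and KLF4 bind similar GC-rich sequences through zinc fingers and act at opposite ends of the crypt, KLF5 in dividing crypt cells and KLF4 in differentiated cells. SOX9 and ASCL2 mark the crypt base, where stem cells reside, and ELF3 is an epithelial ETS factor of differentiating cells.

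HOXB8 itself read 6.54, 5.74, 7.39 and 6.41 FPKM in the 4 dox libraries, against 20.8, 20.4, 17.3 and 18.4 FPKM in the 4 no-dox libraries. No dox library reached any no-dox library. The epithelial label held: EPCAM, CDH1, KRT8, KRT18 and KRT19 read 20.2 FPKM or more in every library, with a summed level of 2589 to 2725 FPKM in dox libraries and 2672 to 3315 FPKM in no-dox libraries. KRT8 and KRT18 fell with dox (averaged log2 differences -0.24 and -0.29, adjusted p = 5.86e-04 and 8.27e-04 in limma, the test described below) and CDH1 and EPCAM rose (0.24 and 0.13, adjusted p = 0.0029 and 0.0106). KRT8 and KRT18 passed in the sh1 line (-0.35 and -0.40, adjusted p = 0.00128 and 0.0022 in limma) and not in the sh2 line (-0.12 and -0.18, adjusted p = 0.129 and 0.0903). Without dox they were already lower in sh2 than in sh1 (-0.38 and -0.36, adjusted p = 0.00207 and 0.00862). CDH1 passed in each line, and EPCAM passed in sh1 (0.16, adjusted p = 0.035) but not in sh2 (0.10, adjusted p = 0.191). KRT19 had a difference of -0.10 (adjusted p = 0.0859), and the part of these epithelial genes in the results below was not tested. Of 4 fibroblast markers in the table COL1A1 alone averaged 1 FPKM or more, and COL1A2 and COL3A1 did not exceed 0.01 FPKM. Of 3 endothelial markers 0 reached that mean, and of 5 immune markers CD68 and PTPRC did. Of 4 goblet markers FCGBP reached it, of 3 enteroendocrine and 3 tuft cell markers 0 did, and the 1 Paneth cell marker in the table, LYZ, read 4.36 to 5.91 FPKM. The summed goblet markers were 1.14 to 1.77 FPKM in dox libraries and 0.97 to 1.12 FPKM in no-dox libraries, with MUC2 at 0.03 FPKM or less. FCGBP made up most of each sum, at 0.93 to 1.45 FPKM with dox and 0.82 to 0.96 FPKM without, which overlap. The part of the goblet markers in the results was not tested. Single markers of these other cell types are named after their values were seen. The sum of FPKM per library was 440063 to 446889, from which read depth cannot be told.

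Of the 6 tested factors, KLF5 fell and ELF3 rose with dox, and SOX9, KLF4, CDX2 and GATA6 did not pass the test (limma over all genes, adjusted p under 0.05, both lines averaged). That comparison called 16.3% of all tested genes, 10.1% higher and 6.2% lower. The balance of these calls depended on the scaling: 61.9% were higher with dox as deposited, against 50.3% with quantile normalization and 46.9% with median-ratio scaling. In the sh1 line 1 member rose and 1 fell, where 6.27% of all tested genes were called, 3.71% higher and 2.56% lower. Its balance turned with the scaling: 434 higher and 300 lower as deposited, 284 and 336 with quantile normalization and 258 and 422 with median-ratio scaling. The sh2 line had 0 members higher and 1 lower, where 2.54% were called, 1.38% higher and 1.15% lower. That balance turned too, with 162 higher and 135 lower as deposited, 136 and 155 with quantile normalization and 103 and 146 with median-ratio scaling. The fall of KLF5 was seen in both lines and separated every dox from every no-dox library. The rise of ELF3 was smaller against its spread and passed in the sh1 line. HNF4A did not exceed 0.15 FPKM and ASCL2 did not exceed 0.03 FPKM in any library. Levels and dox effects are taken by role below, starting from KLF5 and ELF3, the members that changed.

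The promoters of both genes are shown because these are the members that moved. A further reason is that HOXB8, whose RNA was lower with dox, encodes a homeobox protein, a class that binds sequences with the core TAAT. HOXB8 protein was not measured here. Each promoter is the 250 bases before a transcript start, from RefSeq on GRCh38.p14, which is not the build of the deposited values (hg19). Capitals mark TAAT or its complement ATTA. KLF5 has 2 starts, and the deposited value covers both of its transcripts. The upstream start lies after chr13:73054726-73054975 and the downstream one after chr13:73058755-73059004, both on the plus strand, and the ELF3 stretch is chr1:202010337-202010586, also on the plus strand.

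KLF5 upstream: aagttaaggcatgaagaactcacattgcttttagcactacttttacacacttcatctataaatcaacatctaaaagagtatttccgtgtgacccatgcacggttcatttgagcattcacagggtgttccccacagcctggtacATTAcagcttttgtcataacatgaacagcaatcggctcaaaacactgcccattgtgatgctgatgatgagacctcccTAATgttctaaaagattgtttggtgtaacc

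KLF5 downstream: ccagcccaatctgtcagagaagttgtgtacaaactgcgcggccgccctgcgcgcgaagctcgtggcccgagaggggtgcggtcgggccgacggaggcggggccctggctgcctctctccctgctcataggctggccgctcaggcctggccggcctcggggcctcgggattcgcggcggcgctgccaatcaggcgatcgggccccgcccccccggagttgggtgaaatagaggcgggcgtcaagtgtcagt

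ELF3: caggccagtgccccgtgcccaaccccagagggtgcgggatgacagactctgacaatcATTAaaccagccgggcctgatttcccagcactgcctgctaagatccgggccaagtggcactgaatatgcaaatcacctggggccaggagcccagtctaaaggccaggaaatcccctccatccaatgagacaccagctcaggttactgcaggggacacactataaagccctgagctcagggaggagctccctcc

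The 2 KLF5 stretches differed widely in composition, with a GC content of 40.8% upstream and 70.8% downstream, and ELF3 had 58.4%. The median over 35116 promoters was 58%. TAAT, read on both strands, occurred at 2 places in the upstream KLF5 stretch, at 0 in the downstream one and at 1 in ELF3, and 47.4% of all promoters held it. TTTAT, a core shared by CDX and posterior HOX proteins, was read on both strands and occurred in 32.7% of all promoters. It occurred once in the upstream KLF5 stretch, at position -193 from the start, and once in ELF3, at -33. Its letters alone cannot tell a site for these proteins from a core promoter element near the start. CACCC, the core of sites for KLF proteins, occurred 1 time upstream and 2 times downstream in KLF5 and 1 time in ELF3, and in 54.7% of all promoters. RefSeq promoters were also matched for CDX2, GATA6, HNF4A and KLF4, so that 6 of the 9 genes had one. Among members that did not pass the test or could not be tested, TAAT occurred at 3 places in CDX2, at 1 and 4 in the 2 HNF4A starts and at 0 in GATA6 and KLF4. TTTAT occurred at 2 places in CDX2, at 1 in GATA6 and at 0 in HNF4A and KLF4. The GATA6 match lay at -30, so the limit given for the ELF3 match holds for it too. CACCC occurred at 2 and 4 places in the 2 HNF4A starts, at 2 in GATA6 and at 0 in CDX2 and KLF4. All these matches describe letters, not binding, and their part in the dox effects was not tested.

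KLF5 (Entrez 688, chromosome 13), a zinc finger factor of proliferating crypt cells, read 13.3 and 12.4 FPKM in sh1-dox libraries, against 16.7 and 17.0 FPKM in sh1 no-dox libraries. The sh2 libraries read 12.9 and 13.2 FPKM with dox, against 16.1 and 16.2 FPKM without. The 4 dox libraries lay between 12.4 and 13.3 FPKM and the 4 no-dox libraries between 16.1 and 17.0 FPKM, with no overlap. Such a separation in either direction was seen in 17.1% of all tested genes, with the dox libraries lower in 6.87% and higher in 10.2%. KLF5 averaged 12.9 ± 0.397 FPKM with dox and 16.5 ± 0.437 FPKM without (SD, n = 4 each; exact permutation test of 4 against 4, two-sided p = 0.0286, which is the smallest it can give), a change in mean level of -21.6%.

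On the log2(FPKM + 1) scale, the dox minus no-dox difference of KLF5 averaged over the lines was -0.33 (SE 0.04, 95% interval -0.41 to -0.25, adjusted p = 5.69e-04 in limma). It ranked 71 by p among 11712 tested genes. The difference was -0.37 in the sh1 line (adjusted p = 0.00403) and -0.29 in the sh2 line (adjusted p = 0.0233). These effects differed by 0.08 between the lines (sh2 minus sh1, 95% interval -0.08 to 0.24, adjusted p = 0.992), which is within their error. The sh2 call ended without sh2-dox repeat 1 (adjusted p = 0.0509), sh2-dox repeat 2 (0.0697), sh2-no-dox repeat 1 (0.162) or sh2-no-dox repeat 2 (0.111), while the averaged call held without any 1 library (adjusted p = 0.00147 to 0.00509). Fitting all genes unfiltered (0.0751) or moderating without a trend (0.0533) ended it as well. In bulk RNA, fewer cells with a transcript and less of it per cell cannot be told apart.

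**Figure D1:**
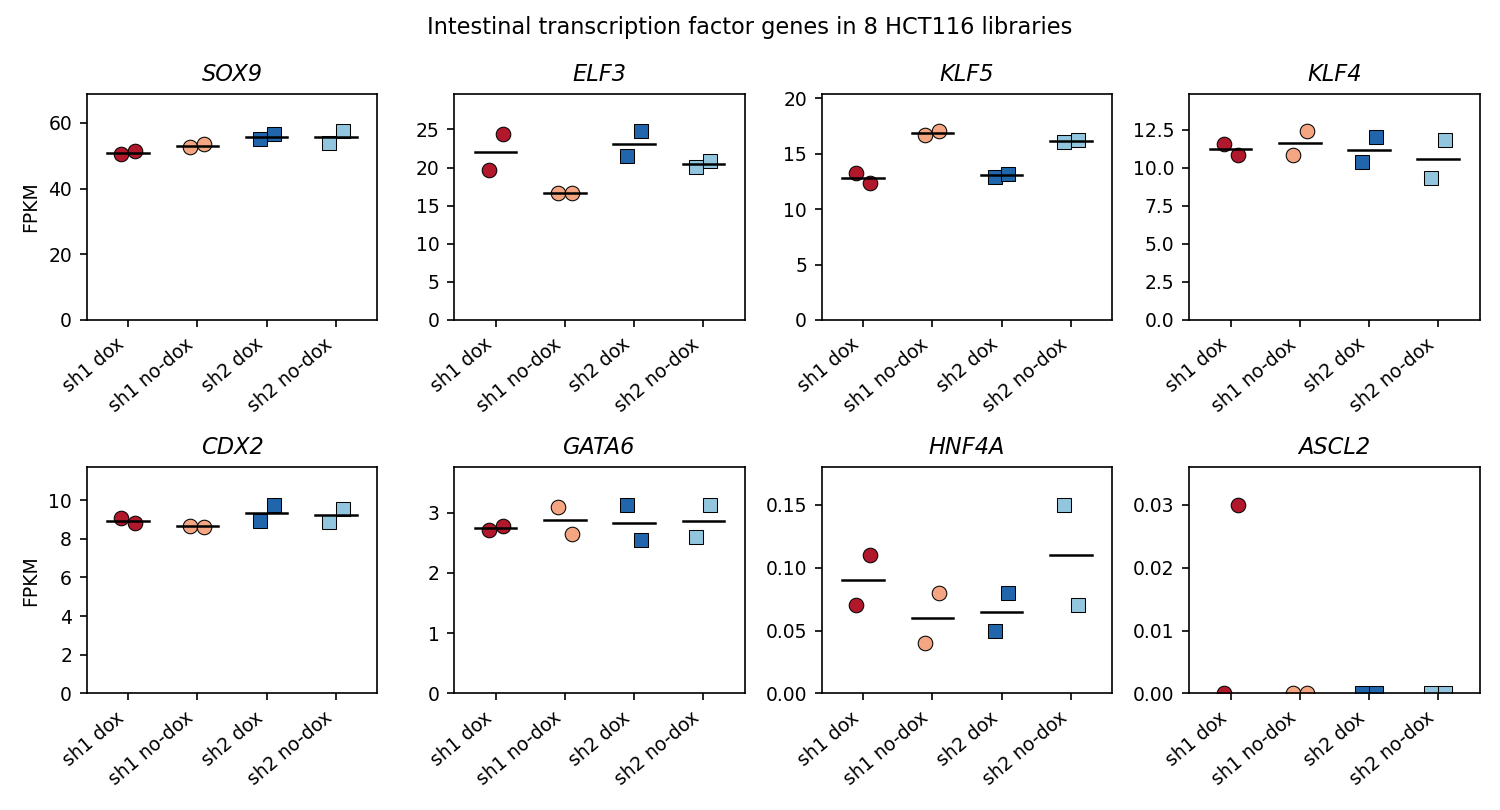
FPKM of the 8 genes found, 1 point per library, in sh1 dox, sh1 no-dox, sh2 dox and sh2 no-dox cells; bars are group means of 2 libraries (none for ASCL2, listed at 0 in 7 libraries). In KLF5 the dox libraries lie between 12.4 and 13.3 FPKM and the no-dox libraries between 16.1 and 17.0 FPKM, while in SOX9, KLF4, CDX2 and GATA6 the states overlap.

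KLF4 (Entrez 9314, chromosome 9), the relative of KLF5 found in differentiated cells, showed no such separation. It read 11.6 and 10.9 FPKM in sh1-dox libraries, against 10.8 and 12.4 FPKM in sh1 no-dox libraries. In the sh2 line it read 10.4 and 11.98 FPKM with dox, against 9.34 and 11.8 FPKM without. The states overlapped, at 11.2 ± 0.717 FPKM with dox and 11.1 ± 1.33 FPKM without (SD, n = 4 each; two-sided exact permutation p = 0.886). The averaged log2 difference was 0.02 with a 95% interval of -0.14 to 0.18 (adjusted p = 0.895 in limma). That interval does not reach the -0.33 measured for KLF5.

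ELF3 (Entrez 1999, chromosome 1), an epithelium-specific ETS factor, read 19.6 and 24.4 FPKM in sh1-dox libraries, against 16.6 FPKM in both sh1 no-dox libraries. In the sh2 line it read 21.5 and 24.8 FPKM with dox, against 20.03 and 20.8 FPKM without. Within each line both dox libraries were above both no-dox libraries, but sh1-dox repeat 1 lay below both sh2 no-dox libraries, so the states overlapped across lines. ELF3 averaged 22.6 ± 2.46 FPKM with dox and 18.5 ± 2.22 FPKM without (SD, n = 4 each; two-sided exact permutation p = 0.0857), a mean level 21.9% higher.

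The averaged log2 difference of ELF3 was 0.27 (SE 0.06, 95% interval 0.13 to 0.42, adjusted p = 0.0187 in limma), rank 1006 by p. It was 0.38 in the sh1 line (95% interval 0.18 to 0.58, adjusted p = 0.0388) and 0.17 in the sh2 line (95% interval -0.03 to 0.37, adjusted p = 0.356). The lines' effects differed by -0.21 (sh2 minus sh1, 95% interval -0.50 to 0.08, adjusted p = 0.992), so a smaller effect in sh2 was not shown. The averaged call ended without sh1-no-dox repeat 1 (adjusted p = 0.0557), sh2-dox repeat 2 (0.0554) or sh2-no-dox repeat 1 (0.0734), with no filter on low values (0.0842) and with no term for the line (0.0673). The sh1 call ended without sh1-dox repeat 2 (adjusted p = 0.219), either sh1 no-dox library (0.171 and 0.141) or either sh2 no-dox library (0.0641 and 0.0638). Quantile normalization (0.0599), median-ratio scaling (0.0584), no trend (0.0775) and no filter (0.137) ended it too. Without sh1-dox repeat 2 the sh1 difference was 0.23, and without sh2-dox repeat 2 the sh2 difference was 0.07. ELF3 exons overlap those of an antisense gene, ELF3-AS1, in GENCODE v29, and the sources used here do not say that counting used strand, so reads of the pair could be mixed. They also overlap those of AL691482.3 on the same strand, whose reads strand would not separate, so the ELF3 values are uncertain on both counts. KLF5, KLF4, SOX9 and CDX2 have no such overlap.

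**Figure D2:**
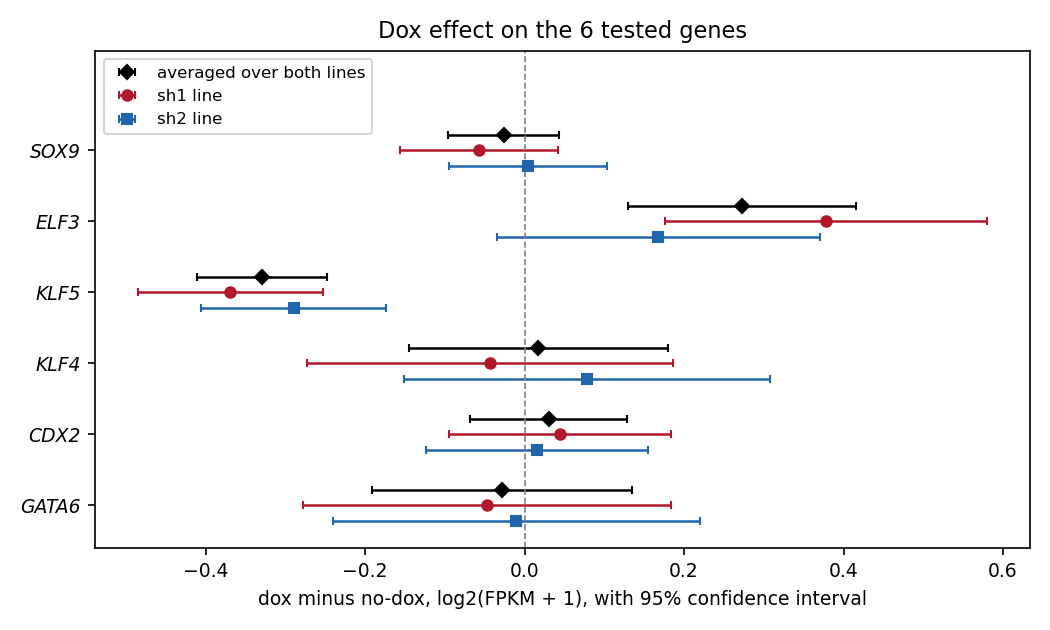
Dox minus no-dox differences of the 6 tested genes on the log2(FPKM + 1) scale, averaged over both lines and in each line, with 95% confidence intervals from limma. The KLF5 intervals lie below 0 in all 3 estimates, those of ELF3 above 0 in the average and in the sh1 line, and the intervals of the other genes include 0.

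Set side by side, ELF3 and KLF5 were at nearly equal levels in sh1 cells without dox, and ELF3 was the higher in the other 3 groups. In FPKM, which is scaled by transcript length, ELF3 was 1.48 and 1.97 times KLF5 in sh1-dox libraries, against 0.993 and 0.975 times in sh1 no-dox libraries. In the sh2 line the ratio was 1.67 and 1.88 with dox, against 1.24 and 1.28 without. The pair was chosen because 1 gene was called lower and the other higher, so the separation of the dox from the no-dox ratios restates those calls.

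**Figure D3:**
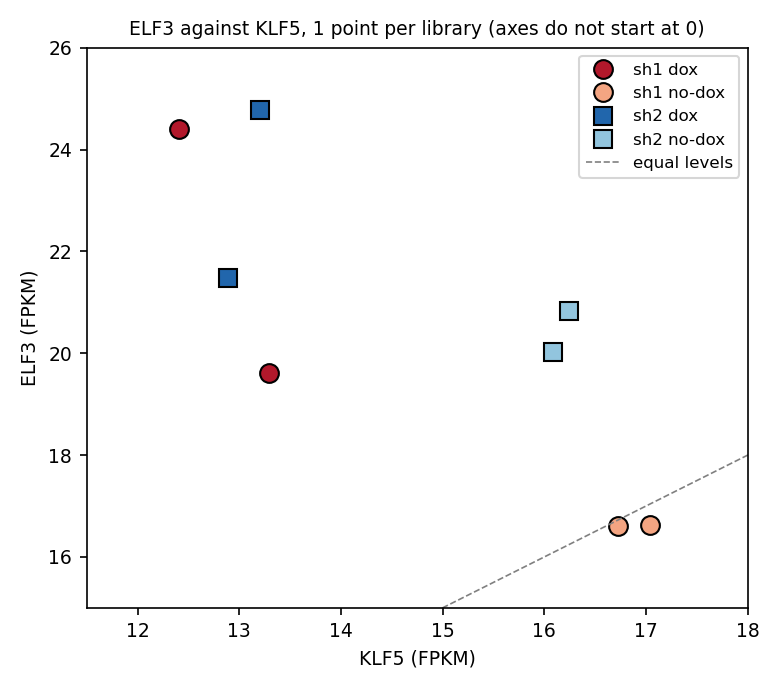
ELF3 against KLF5 in FPKM, 1 point per library, with a dashed line of equal levels; axes do not start at 0. The 4 dox libraries lie at the left, with ratios from 1.48 to 1.97, and the 2 sh1 no-dox libraries lie just under the line of equal levels. In ELF3 the states overlap, as sh1-dox repeat 1 (19.6 FPKM) lies lower than both sh2 no-dox libraries (20.03 and 20.8 FPKM).

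CDX2 (Entrez 1045, chromosome 13), the caudal homeobox factor that specifies hindgut epithelium, read 9.06 and 8.83 FPKM in sh1-dox libraries, against 8.65 and 8.63 FPKM in sh1 no-dox libraries. Those of the sh2 line read 8.91 and 9.76 FPKM with dox, against 8.89 and 9.55 FPKM without. The highest values of both states came from sh2 second repeats. It averaged 9.14 ± 0.424 FPKM with dox and 8.93 ± 0.43 FPKM without (SD, n = 4 each; two-sided exact permutation p = 0.486). Its averaged log2 difference was 0.03, with a 95% interval of -0.07 to 0.13 (adjusted p = 0.677 in limma). No value is given for CDX1, the paralog of CDX2.

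SOX9 (Entrez 6662, chromosome 17), a factor of crypt base and progenitor cells, was the most abundant of these transcripts. It read 50.5 and 51.4 FPKM in sh1-dox libraries, against 52.6 and 53.5 FPKM in sh1 no-dox libraries. The sh2 line had 55.0 and 56.5 FPKM with dox, against 53.8 and 57.4 FPKM without. The averaged log2 difference was -0.03 (95% interval -0.10 to 0.04, adjusted p = 0.603 in limma; two-sided exact permutation p = 0.629 for 53.4 ± 2.89 FPKM with dox and 54.3 ± 2.13 FPKM without, SD, n = 4 each). With dox, both sh2 libraries were above both sh1 libraries by a log2 difference of 0.13 (95% interval 0.03 to 0.23), which did not pass after adjustment (adjusted p = 0.374).

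GATA6 (Entrez 2627, chromosome 18), a zinc finger factor of endoderm, was the least abundant factor that could be tested. It read 2.71 and 2.77 FPKM in sh1-dox libraries, against 3.09 and 2.65 FPKM in sh1 no-dox libraries. The repeats of the sh2 line crossed, with 3.13 and 2.54 FPKM with dox, against 2.59 and 3.13 FPKM without. The averaged log2 difference was -0.03 with a 95% interval of -0.19 to 0.13 (adjusted p = 0.821 in limma). Its exons overlap an antisense gene, GATA6-AS1, so its reads share the limit given for ELF3.

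HNF4A (Entrez 3172, chromosome 20), a nuclear receptor that drives enterocyte genes, read 0.07, 0.11, 0.05 and 0.08 FPKM in the 4 dox libraries, against 0.04, 0.08, 0.15 and 0.07 FPKM in the 4 no-dox libraries. The states overlapped, and its mean of 0.0813 FPKM was above that of 16.1% of the genes in the table. ASCL2 (Entrez 430, chromosome 11), a factor of intestinal stem cells, was listed at 0 in 7 libraries and at 0.03 FPKM in sh1-dox repeat 2. Neither entered the fit, and at these levels no change in either could be seen.

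By mean level over the 8 libraries the order was SOX9 at 53.8, ELF3 at 20.5, KLF5 at 14.7, KLF4 at 11.1, CDX2 at 9.03, GATA6 at 2.83, HNF4A at 0.0813 and ASCL2 at 0.00375 FPKM. SOX9 was above ELF3 in 8 of 8 libraries with no overlap of their ranges. ELF3 was above KLF5 in 6 of 8 libraries, and the ranges of these neighbours overlapped. KLF5 stayed above KLF4 and KLF4 above CDX2 in 8 of 8 libraries, although the ranges of KLF4 and CDX2 overlapped over the set. CDX2 was 3.2 times GATA6, and GATA6 was 34.8 times HNF4A.

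The median averaged log2 difference of the 6 tested factors was -0.00, where the median of all tested genes was 0.02. With 6 genes chosen with these results known, the counts are a description. The difference between the lines' effects was called for 0 of the 6 and for 0% of all tested genes by limma, while 0 of the 6 and 566 of all 11712 had an unadjusted p under 0.05.

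Without dox the lines were called different in 0 of the 6 factors by limma, where 1.45% of all tested genes were called, and 1 of the 6 had an unadjusted p under 0.05. That gene was ELF3, at 20.4 ± 0.559 FPKM in sh2 and 16.6 ± 0.00707 FPKM in sh1 (SD, n = 2 each), a log2 difference of 0.28 (95% interval 0.08 to 0.48, adjusted p = 0.142). With the repeat number as a replicate block this passed (adjusted p = 0.0484). With dox the lines were called different in 0 of the 6 by limma, against 0.0598% of all tested genes. SOX9 was the 1 of the 6 with an unadjusted p under 0.05, which 1163 of all 11712 also had. The uninduced libraries enter both this comparison and the dox effects, which are therefore not independent.

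Among 48 other transcription factors of the intestinal epithelium, 43 were in the table and 26 were tested. In the averaged comparison 3 rose, 1 fell and 22 did not pass, with a median log2 difference of 0.06. That is 15.4% called, near the 16.3% of all tested genes. PPARG, a nuclear receptor of differentiated colonocytes, rose to 17.0 ± 0.802 FPKM with dox, against 13.1 ± 0.968 FPKM without (SD, n = 4 each; log2 difference 0.35, adjusted p = 0.00121 in limma). HES1, the Notch effector that favours absorptive over secretory fate, rose to 18.1 ± 1.55 FPKM, against 14.5 ± 0.317 FPKM without dox (0.30, adjusted p = 0.00287). GRHL2, a factor that maintains epithelial junction genes, had 10.6 ± 0.193 FPKM with dox and 8.99 ± 0.294 FPKM without (0.21, adjusted p = 0.00635). All 3 had every dox library above every no-dox library, as did 10.2% of all tested genes. PPARG passed in each line (adjusted p = 0.00769 in sh1 and 0.0387 in sh2), HES1 in sh2 (0.0257) but not in sh1 (0.0511), and GRHL2 in sh1 (0.0249) but not in sh2 (0.131). GRHL2 has an antisense gene with overlapping exons.

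KLF6, a relative of KLF4 and KLF5, was the member of that list that fell. It read 21.5 and 21.5 FPKM in sh1-dox libraries, against 27.8 and 26.8 FPKM in sh1 no-dox libraries. The sh2 values were 19.8 and 22.8 FPKM with dox, against 27.8 and 26.8 FPKM without. The states did not overlap, and the averaged log2 difference was -0.34 (SE 0.04, adjusted p = 0.00127 in limma), close in size to that of KLF5. It passed in each line, at -0.33 in sh1 (adjusted p = 0.0167) and -0.35 in sh2 (adjusted p = 0.0225).

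Over 54 paralogs of the members in the KLF, SP, SOX, CDX, GATA, ASCL, HNF4 and epithelial ETS families, 48 were in the table and 28 were tested. KLF6 fell, SOX12 rose and 26 did not pass, so that 7.14% were called, against 16.3% of all tested genes, with a median log2 difference of 0.03. This list shares 9 genes with the other lists, and the fall of KLF6 is the call already counted above. SOX12, a SOX factor of a group other than that of SOX9, had 25.3 ± 1.53 FPKM with dox and 21.0 ± 0.749 FPKM without (SD, n = 4 each; log2 difference 0.25, adjusted p = 0.00433 in limma). It passed in sh1 (adjusted p = 0.0374) but not in sh2 (0.0535). EHF, an epithelial ETS relative of ELF3, stayed between 21.3 and 23.3 FPKM in all 8 libraries, and HNF4G read 0.89 to 1.29 FPKM. The ETS relatives ELF1, ELF2 and ELF4 had averaged log2 differences of -0.07, 0.08 and 0.13. None of them passed (adjusted p = 0.352, 0.326 and 0.0759 in limma). EHF, HNF4G, ELF1, ELF2 and ELF4 were chosen as relatives after their values were seen.

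Of 46 genes listed as enterocyte and colonocyte genes, 38 were in the table and 30 averaged under 1 FPKM. The list also holds MUC2, counted above as a goblet marker. The brush border gene VIL1 did not exceed 0.04 FPKM, the cadherin gene CDH17 read 0.09 to 0.21 FPKM and FABP1 of fatty acid binding did not exceed 0.09 FPKM. Others of the list were well above these, with LGALS3 averaging 62.0, CA2 23.8 and PLS1 16.6 FPKM. All these examples were chosen after their values were seen. Among the 8 tested, 1 rose, 1 fell and 6 did not pass, with a median of 0.01. The 2 calls are 25% of the 8, where 16.3% of all tested genes were called. EZR, which links membrane to actin in microvilli, fell to 552 ± 26.5 FPKM with dox, against 718 ± 47.6 FPKM without (SD, n = 4 each; log2 difference -0.38, adjusted p = 1.30e-04 in limma). ESPN, an actin-bundling protein gene, rose to 22.1 ± 1.02 FPKM, against 19.1 ± 1.64 FPKM without dox (0.20, adjusted p = 0.00745). EZR passed in each line (adjusted p = 0.00133 in sh1 and 0.00502 in sh2) with no overlap of the states, while ESPN passed in sh1 (0.0252) but not in sh2 (0.16), and its states overlapped. Both have antisense partners with overlapping exons, and those of ESPN include a protein-coding gene.

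Of 30 stem cell and crypt genes, 28 were in the table and 22 were tested, of which 1 rose, 2 fell and 19 did not pass, with a median of 0.02. That is 13.6% called, near the 16.3% of all tested genes. The stem cell receptor gene LGR5 did not exceed 0.01 FPKM, beside the near-absent reads of ASCL2. It was 1 of 6 listed genes that averaged under 1 FPKM. The median level of the 28 was 3.2 FPKM, and CD44, the highest, averaged 113 FPKM. LGR5 and CD44 were chosen after their values were seen. CDK6, a cyclin-dependent kinase gene of G1, fell to 10.9 ± 1.25 FPKM with dox, against 13.8 ± 1.51 FPKM without (SD, n = 4 each; log2 difference -0.31, adjusted p = 0.00284 in limma). TCF7, a Wnt pathway transcription factor gene, fell to 12.9 ± 0.216 FPKM, against 14.4 ± 0.547 FPKM without dox (-0.15, adjusted p = 0.0239). RGMB, a BMP co-receptor gene, rose to 5.44 ± 0.255 FPKM, against 4.59 ± 0.154 FPKM without dox (0.20, adjusted p = 0.0191). CDK6 passed in each line (adjusted p = 0.0239 in sh1 and 0.047 in sh2), but its states overlapped across lines. TCF7 (0.0635 in sh1 and 0.298 in sh2) and RGMB (0.0904 and 0.163) passed in neither line alone. The TCF7 call ended without sh1-dox repeat 2 (adjusted p = 0.0795), sh1-no-dox repeat 1 (0.1001), sh2-dox repeat 2 (0.058) or sh2-no-dox repeat 1 (0.0929). The RGMB call ended without sh1-dox repeat 1 (0.0576), sh1-no-dox repeat 1 (0.0765) or sh2-no-dox repeat 1 (0.0705) and with no filter (0.0539). CDK6, TCF7 and RGMB all have an antisense gene with overlapping exons, which for TCF7 is a protein-coding gene.

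**Figure D4:**
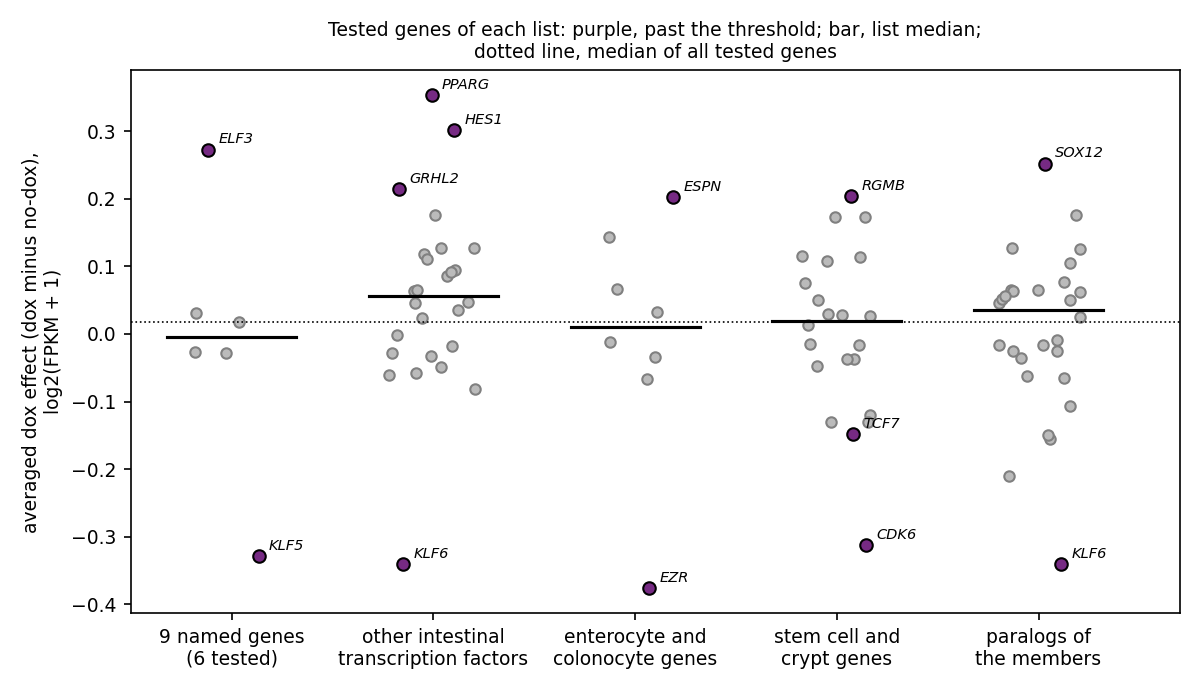
Averaged dox minus no-dox differences, log2(FPKM + 1), of the tested genes of each list, 1 point per gene, purple where adjusted p was under 0.05; bars are list medians and the dotted line is the median of all tested genes, 0.02. KLF5 and KLF6 lie near -0.33 and -0.34, while most genes of every list lie between -0.2 and 0.2. Genes that stand in more than 1 list, KLF6 among them, are drawn in each.

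The genes whose profiles were nearest to those of KLF5 and ELF3 were found by the root mean square (RMS) difference of log2(FPKM + 1), each gene centred on its own mean, over 8 libraries and 11706 genes. For KLF5, whose own RMS deviation from its mean was 0.168, they were RRAS2, a RAS-related GTPase gene, at an RMS difference of 0.0238, and FRMD5, a FERM domain gene, at 0.0342. RRAS2 read 19.5, 18.2, 19.8 and 19.6 FPKM in the 4 dox libraries, against 25.5, 25.3, 23.5 and 24.1 FPKM in the 4 no-dox libraries. For ELF3, with an own RMS deviation of 0.194, they were PLA2G6, a phospholipase gene, at 0.0436, and PHF21A, a chromatin reader gene, at 0.0471. PLA2G6 read 6.34, 7.82, 7.08 and 8.57 FPKM in dox libraries, against 5.5, 5.41, 6.28 and 6.41 FPKM in no-dox libraries, and its exons overlap an antisense gene. Like ELF3, PLA2G6 was highest in the second dox repeat of each line. These genes were picked for likeness over the same 8 libraries, so their shared patterns restate the choice.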

How the data were processed

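PolyA-selected RNA of 8 HCT116 libraries was analysed, 2 in each of 4 groups, with groups taken from sample titles. The deposited values are FPKM, computed by the authors for 17166 genes; HISAT, Bowtie2 and the build hg19 are named, per the submitters' processing notes, without roles or versions. The quantifier and annotation were not given in the sources used here. A spreadsheet had turned 27 symbols into dates, which were restored from Entrez identifiers (17131 matched a RefSeq table of GRCh38.p14). Read totals cannot be recovered. In 282 low genes, where values fell on steps of 1 to 4 within 10%, the value of 1 step differed between libraries by a median factor of 0.992 to 1.005. Only genes whose steps lay within 10% in all 8 libraries were kept, which holds this factor near 1. It therefore cannot show whether depth was equal. Precision is set by 2 repeats a group, which may be technical, since the labels do not say that they are separate cultures.

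The 11712 genes averaging 1 FPKM or more entered a limma fit (version 3.58.1, R 4.3.3) on the log2(FPKM + 1) scale, with a mean for each group, a variance trend, two-sided tests, Benjamini-Hochberg adjustment over all tested genes and a threshold of 0.05. This scale understates changes of low genes. The 6 comparisons were the dox effect averaged over lines, in sh1, in sh2, the difference of these, and sh2 minus sh1 without and with dox. The 8 members found were also compared by exact permutation of FPKM, 4 against 4, with p unadjusted. The code was tested on simulated data. Members, gene lists, tests and alternatives were chosen with earlier results of these data known. Named genes were all members, HOXB8 and 5 epithelial markers, up to 5 listed genes per direction with the smallest adjusted p in the averaged effect, the 2 genes most like each called member, and up to 3 listed genes past the threshold in the difference and uninduced comparisons (0 passed). Any further gene is said to be chosen after its values were seen. Exon overlaps come from GENCODE v29 (GRCh38). Figures were drawn with matplotlib 3.10.9. Alternatives were another pseudocount (0.1), no filter or a mean of 5 FPKM, quantile normalization, median-ratio scaling, no trend, a replicate block, no term for the line, and each library left out.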

Additional observations from a re-analysis of the deposited data

Results flagged for a closer look

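ASCL2 in the dox libraries was picked out because 1 library stood far from the rest of its state: it was listed at 0.03 FPKM in sh1-dox-r2, against 0 in the other dox libraries and in all no-dox libraries. It was 1 of 15 groups of values examined in this way, and chance picks out about 1 in 20. That rate does not apply here: with the other dox values at 0, any single value above 0 is picked out.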

How the results depend on the processing

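The KLF5 averaged call held under all 16 alternatives (log2 difference -0.35 to -0.31, adjusted p = 3.05e-04 to 0.0068 in limma). Over all comparisons, 780 gene values were recomputed, of which 704 kept their direction and side of the threshold, 37 lost a call, 1 gained one and 38 changed sign, 0 of these called. The calls lost are given beside the genes above, except PHF21A (adjusted p = 0.0503 with no filter and 0.0719 with no term for the line) and PLA2G6 (0.0842 with no filter, and 0.0537 to 0.0701 without 1 of 6 libraries). GATA6 averaged under 5 FPKM and has no value under that filter. Depth behind FPKM is unknown, and 2 repeats a group limit what can be called.

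In the averaged comparison 1906 genes and 2 members were called, against 1021 genes and 1 member with no filter and 1074 genes and 1 member with no term for the line. In sh1, 734 genes and 2 members became 155 and 1 with no filter, 379 and 1 with no trend, and 1 member with quantile normalization or median-ratio scaling. In sh2, 297 genes and 1 member became 35 and 0 with no filter and 90 and 0 with no trend. Between uninduced lines, 170 genes became 23 with no filter and 67 with no trend, and between induced lines 7 became 0 with no filter or no trend and 3 with quantile normalization. Among the other intestinal transcription factors 3 to 8 rose and 1 fell under the alternatives, among paralogs 1 to 3 rose and 1 to 3 fell, and among stem cell and crypt genes 0 to 2 rose and 1 to 3 fell.

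Same-numbered repeats deviated together with r of -0.03 to 0.22 over 6 pairs of groups. Some pairs were above 0.1 (0.215, 0.195, 0.159 and 0.104) and others were not (0.0744 and -0.0266). Since r did not exceed 0.1 in every pair, the numbers were not taken as pairs. With a replicate block 2684 genes were called in the average, 1362 in sh1, 738 in sh2, 505 between uninduced lines, with 1 member (ELF3), and 21 between induced lines.

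With each library left out in turn, 851 to 2356 genes and 1 to 2 members were called in the average, 99 to 1089 and 1 to 2 in sh1, 17 to 370 and 0 to 1 in sh2, 0 to 2 genes for the difference, 16 to 361 between uninduced and 0 to 4 between induced lines. The averaged count moved by over 1.5 times without sh1-dox repeat 2 (975), sh1-no-dox repeat 1 (851), sh1-no-dox repeat 2 (1167), sh2-no-dox repeat 1 (900) or sh2-no-dox repeat 2 (1194). Log2 differences of uncalled members changed sign when 1 library was left out. In the average they ranged over GATA6 -0.0842 to 0.027 and KLF4 -0.0596 to 0.0944. In sh1 they ranged over GATA6 -0.13 to 0.0351 and KLF4 -0.13 to 0.0462. In sh2 they ranged over CDX2 -0.0437 to 0.075, GATA6 -0.12 to 0.10, KLF4 -0.0754 to 0.23 and SOX9 -0.0416 to 0.0507. For the difference they ranged over CDX2 -0.0885 to 0.0302, GATA6 -0.0743 to 0.15 and KLF4 -0.0317 to 0.28. Between uninduced lines they ranged over GATA6 -0.11 to 0.0961 and KLF4 -0.28 to 0.025. Between induced lines they ranged over CDX2 -0.00499 to 0.11, ELF3 -0.0785 to 0.22, GATA6 -0.0792 to 0.14, KLF4 -0.10 to 0.0888 and KLF5 -0.025 to 0.0667. Quantile normalization gave CDX2 -1.76e-04 in the average, -0.00191 in sh1 and 0.00347 for the difference, and median-ratio scaling gave KLF4 -1.34e-04 in the average and SOX9 -0.00565 in sh2, all against the sign of the value reported. The cause of these changes was not tested.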
